A study of Mus musculus with 12 samples.

Results

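Loss of Nfat5 was examined without osmotic stress by comparing Nfat5-KO_300 with Scr_300, which hold 6 of the 12 RNA-seq libraries of the study. Both groups were mpkCCD cells, a mouse line that descends from principal cells of the cortical collecting duct. Nfat5-KO_300 held 4 libraries of cells in which CRISPR/Cas9 had deleted Nfat5, prepared from the clones N1 and N3. Scr_300 held 2 libraries of cells that carried a scramble guide RNA with no target. Both had been grown for 5 days at 300 mosmol/kg. The other 6 libraries, Nfat5-KO_600 and Scr_600, came from cells of the same genotypes kept at 600 mosmol/kg by adding 100 mM NaCl and 100 mM urea, and their values are set beside the isotonic ones. Genes were compared where at least 1 of the 2 isotonic groups reached 0.5 FPKM (fragments per kilobase of exon, scaled to the assigned reads of the library), which left 12704 of 52015 genes. All knockout cells descend from 2 clones, so that the deletion and other differences between clones cannot be told apart.

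NFAT5 is the transcription factor of the Rel family that is best known for switching on genes for organic osmolytes and chaperones when the medium becomes hypertonic. Slc6a12, Slc6a6 and Slc5a3, which import betaine, taurine and myo-inositol, and Akr1b3, which makes sorbitol, are its textbook targets. In the collecting duct, principal cells take up sodium and water, and the cells of the inner medulla live in a hypertonic interstitium. At isotonic osmolality NFAT5 is also present in many cells, and the comparison describes which transcripts differ there between knockout and scramble cells.

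The authors deposited 1 FPKM value per gene and group, which is the mean of that group's libraries. Multiplied by the exon length of the gene, these values were sums of whole reads, so that the depth of each library could be read from them. The 2 Scr_300 libraries had 35.9 M and 32.0 M assigned reads (M, megareads), and the 4 Nfat5-KO_300 libraries had 29.3 M to 32.8 M. For 11587 of the 12704 genes (91.2%) the reads of both Scr_300 libraries were recovered, called the deeper and the shallower library below. Which culture each of them is was not assigned. In Nfat5-KO_300, where 4 libraries are summed, this was possible only for genes with few reads, and the group value carries no error. With the reads of all 6 libraries known for 753 of the 12704 genes only, no p-value was calculated, and a difference is set beside both control libraries.

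The cells kept the markers of a collecting duct epithelium only in part. The 6 pan-epithelial markers were all present, with Cdh1 at 103 FPKM in Nfat5-KO_300 and 79.8 in Scr_300 and Krt8 at 375 and 370. Of 10 principal cell markers, 5 reached 0.5 FPKM in Nfat5-KO_300 and 4 in Scr_300. Tfcp2l1, a regulator of collecting duct identity, had 48.9 and 40.6 FPKM. Aqp2, the vasopressin-regulated water channel, had 3 reads in all in the 4 knockout libraries and 0 in Scr_300, and Avpr2, Scnn1g and Elf5 were also under 0.1 FPKM in both groups. No marker of intercalated cells, proximal tubule, thick ascending limb, podocytes, fibroblasts or endothelium reached 0.5 FPKM in either group, and of 4 leukocyte markers 3 were under 0.1 FPKM in both. The fourth, Cd68, a lysosomal protein of macrophages that other cells also make, had 1.80 FPKM in Nfat5-KO_300 against 2.10 and 3.13 in the Scr_300 libraries.

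Nfat5 itself (chr8:107293470-107379517, GRCm38, plus strand) had 3.47 FPKM in Nfat5-KO_300. The deeper Scr_300 library had 5.61 FPKM from 3707 reads and the shallower 5.60 from 3289 reads. The knockout value lay below both, at a log2 ratio of -0.68 to the group value of Scr_300, so that a transcript remained in the knockout cells. The count covers all exons and does not show where the gene was cut. Among the other members of the family, Nfatc2, a calcium-regulated NFAT, had 5.90 FPKM in the knockout cells against 3.87 and 3.01 in the Scr_300 libraries. Rcan1, a feedback inhibitor of calcineurin, had 9.90 against 6.69 and 5.79. Both were higher than either control library. Of the 10 genes compared in this family and the calcineurin complex, none differed by 2-fold.

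The osmoprotective targets of NFAT5 were slightly lower, and none of the 11 that were compared differed by 2-fold. Of these, 10 were lower and 1 was higher, beside 50.2% lower of all genes. At least 1.5-fold lower were 3, beside 6.21% of all genes, and the median log2 ratio was -0.39. Of the 8 with recovered reads, 5 lay below both control libraries and 3 between them, beside 34.9% and 26.7% of all genes. Their median was -0.40 to the deeper and -0.24 to the shallower library. Akr1b3, aldose reductase, had 14.5 FPKM in Nfat5-KO_300 against 25.3 and 22.4 in the Scr_300 libraries, a log2 ratio of -0.72. Slc6a6, the taurine transporter, had 12.7 FPKM against 16.4 and 20.2. In both genes the knockout value was below the lower control. Hspa1b, an inducible heat shock protein 70, had 52.3 FPKM, while the control libraries had 124 and 58.6 and thus differed from each other more than the shallower one differed from the knockout. Slc5a3, the myo-inositol transporter, had 1.87 FPKM, between 2.56 and 1.69. Cryab, a small heat shock protein, had 149 FPKM, between 173 and 114. Slc38a2, a transporter of neutral amino acids, had 25.1 against 50.3 FPKM in the group value of Scr_300, at a log2 ratio of -0.998, just inside the 2-fold limit, and its reads per library were not recovered. Slc6a12, the betaine transporter, and Ranbp3l were below 0.1 FPKM in both groups. At 600 mosmol/kg the same 11 genes had a median log2 ratio of -0.74, with Akr1b3 at -2.16 and Hspa1b at -2.44.

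The genes that the study followed by RT-qPCR differed widely in level, and only Cldn8 and Slco4a1 exceeded 0.5 FPKM in the isotonic cells. Cldn8, a claudin of the collecting duct tight junction (chr16:88560828-88563183), had 3.71 FPKM in Nfat5-KO_300, from about 1094 reads over 4 libraries. The Scr_300 libraries had 0.331 and 0.252 FPKM from 28 and 19 reads. This was a log2 ratio of 3.28, and it was 3.62 at 600 mosmol/kg. Slco4a1, an organic anion transporter (chr2:180456245-180474867), went the other way, with 1.01 FPKM in Nfat5-KO_300 against 3.71 and 3.73 in the controls. Its log2 ratio was -1.79, and it was -3.25 at 600 mosmol/kg, where Scr_600 had 46.2 FPKM. Kcnj16, a basolateral potassium channel, had 7 and 32 reads in the Scr_300 libraries and 2, 0, 4 and 1 in those of Nfat5-KO_300 in order of depth. Fxyd2, a subunit modulating the sodium pump, had 14 and 10 reads against 3, 2, 0 and 0. Both were lower in each knockout library than in either control library, at levels where few reads decide. Lifr, the leukaemia inhibitory factor receptor, was listed at 0 in Nfat5-KO_300 and had 0.139 and 0.029 FPKM in the controls. Adgrf1 had 1 read in all in the knockout libraries and 0 in Scr_300.

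Over all 12704 genes the ratios centred on 0, with a median log2 ratio of -0.0015 and an SD over genes of 0.48. By any amount, 6377 genes (50.2%) were lower in Nfat5-KO_300. Of the 12704 genes, 220 (1.73%) exceeded Scr_300 by 2-fold or more, and 310 (2.44%) fell short of it by as much. At 1.5-fold the numbers were 670 (5.27%) and 789 (6.21%). The control libraries were compared with each other in the same way. Among the 11587 genes with recovered reads, the shallower Scr_300 library was 2-fold or more away from the deeper for 445 (3.84%), 209 above and 236 below. Over the same genes, 478 (4.13%) were 2-fold or more away from Scr_300 in the knockout cells. The SD over genes of the log2 ratio was 0.48 for both. The readings are not alike in kind, since a mean of 4 libraries over a mean of 2 carries less library noise than a ratio of 2 single libraries.

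The shares varied with the level of expression. Among 2411 genes whose higher group value was 2 to 5 FPKM, 3.61% differed 2-fold between knockout and control and 2.78% between the control libraries. Among 4382 genes at 5 to 20 FPKM the shares were 1.62% and 1.07%. Below 1 FPKM, in 1203 genes, the order was the reverse, with 13.7% and 16.04%. Of the 220 higher genes 133 did not reach 2 FPKM in either group, and neither did 186 of the 310 lower ones. The lower genes also included 32 microRNA genes, 26 small nucleolar RNA genes and 35 processed pseudogenes, and the higher ones 19, 6 and 10. Of the 310 lower genes 152 were protein coding, as were 133 of the 220 higher ones, beside 10582 of all 12704 genes compared. The shares of the other classes over all genes compared are not given here.

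A difference was therefore also read against both control libraries. Nfat5-KO_300 was 2-fold or more above both for 129 of 11587 genes (1.11%) and 2-fold or more below both for 142 (1.23%). Of these 88 and 86 were protein coding. A further 82 genes counted as 2-fold higher and 125 as 2-fold lower by the group value alone, with 1 control library nearer to the knockout than 2-fold. Without regard to size, the knockout value lay above both control libraries for 38.4% of the 11587 genes, below both for 34.9% and between them for 26.7%. These readings were added after the values had been seen.

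**Figure D1:**
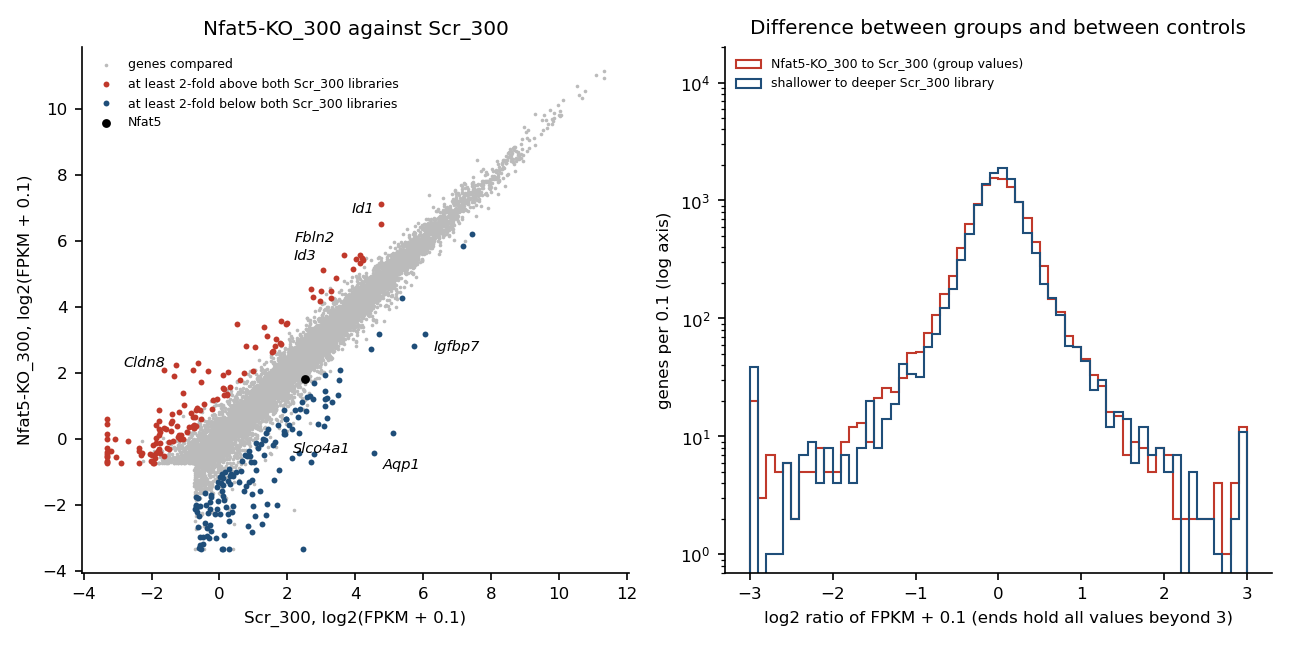
Left, log2(FPKM + 0.1) of the 12704 genes in Scr_300 (x axis) and Nfat5-KO_300 (y axis); red and blue mark the 129 and 142 genes at least 2-fold above or below both Scr_300 libraries, and the black point is Nfat5. Right, the number of genes per 0.1 of log2 ratio, on a log axis, between Nfat5-KO_300 and Scr_300 (red) and between the 2 Scr_300 libraries (blue) over 11587 genes; the outlines nearly coincide.

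Among the protein-coding genes with at least 0.1 FPKM in both groups, the lowest ratio was that of Aqp1, the water channel of the proximal tubule and thin descending limb (chr6:55336432-55348555). It had 0.653 FPKM in Nfat5-KO_300, from about 215 reads. The deeper Scr_300 library had 33.9 FPKM from 3199 reads and the shallower 13.4 from 1123 reads. The control libraries thus differed by a factor of more than 2, yet both were far above the knockout, at log2 ratios of -5.50 and -4.16. At 600 mosmol/kg Aqp1 had 318 FPKM in Scr_600 and 3.51 in Nfat5-KO_600. Igfbp7, a secreted insulin-like growth factor binding protein of the extracellular matrix (chr5:77349240-77408041), had 9.01 FPKM against 59.99 and 73.1, a log2 ratio of -2.87, and 47.4 against 391 at 600 mosmol/kg. Gabrp, the pi subunit of the GABA-A receptor, had 6.94 FPKM against 63.3 and 42.3. In all 3 genes the knockout value was below the lower control library by more than 2-fold.

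The genes next to them were expressed at a few FPKM in the controls. Mgat3, which adds the bisecting N-acetylglucosamine to N-glycans, had 0.513 FPKM against 5.75 and 6.999. Sh3gl2, an endophilin of synaptic vesicle endocytosis, had 0.104 against 2.25 and 2.69. Cp, ceruloplasmin, had 0.426 against 4.36 and 2.18. Angptl2, an angiopoietin-like secreted protein, had 0.649 against 4.39 and 5.59. All 4 remained lower at 600 mosmol/kg, at log2 ratios of -1.94, -3.30, -2.78 and -1.46. Il33, an alarmin cytokine, had 1.27 FPKM against 9.61 and 5.26, and its log2 ratio of -2.46 was -0.51 at 600 mosmol/kg. Gstt1, a theta class glutathione S-transferase, had 0.574 against 4.46 and 4.11 and was on the other side at 600 mosmol/kg, with 5.01 against 2.49 FPKM. Nupr1, a stress-induced chromatin protein, had 1.47 FPKM, but the controls were at 3.20 and 14.8, so that its log2 ratio was -1.07 or -3.24 according to the library.

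Pax2, a transcription factor of the ureteric bud and collecting duct, had 2.23 FPKM in Nfat5-KO_300 against 7.53 and 5.65, and 7.85 against 43.7 at 600 mosmol/kg. Prom1, a marker of tubular progenitors, had 3.13 FPKM against 6.85 and 6.62, with 8.52 against 6.81 at 600 mosmol/kg. Scel, sciellin, a precursor of the cornified envelope, had 6.52 against 19.1 and 24.8. Tspan14, a tetraspanin, had 19.2 against 39.6 and 43.7 and 17.9 against 54.8 at 600 mosmol/kg. Aldh2, the mitochondrial aldehyde dehydrogenase, had 1.49 against 4.86 and 4.97. Slc25a48, a mitochondrial carrier, had 2.10 against 7.42 and 12.3. These 6 genes were more than 2-fold below both control libraries. Scel, Tspan14 and Aldh2 lie outside the rule for named genes and were chosen after their values were seen.

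The genes that were nearly absent from the knockout cells included some on the X chromosome, some known from the germ line and some encoded on other chromosomes. On the X chromosome 11 of 385 genes compared were 2-fold lower and 3 were 2-fold higher, beside 310 (2.44%) and 220 (1.73%) of all 12704. The lower count on X was thus near the share over all genes, and chromosome 15 had 16 of 471. A list of germ-cell and X-linked testis genes was added after the values were seen. Of its 13 genes compared, 5 were 2-fold lower and 0 were 2-fold higher. Genes already seen to be lower were among its members, so this count cannot show a shift of such genes. By any amount 8 were lower and 5 higher, at a median of -0.07. 3830403N18Rik (chrX:56136572-56153498), had 1.03 FPKM in Nfat5-KO_300 against 29.98 and 38.9. Gm773, beside it on the X chromosome, was listed at 0 in Nfat5-KO_300 and had 180 and 172 reads in the controls. Against a floor of 3 reads over the 4 knockout libraries it was at least 217-fold lower. Xlr, an X-linked lymphocyte-regulated gene, had 0.634 FPKM against 5.64 and 7.88, and Rhox5, a homeobox gene of the testis, had 0.126 against a group value of 4.47. Tex101, a germ cell surface protein, had 165 and 185 reads in the controls and 0, 0, 10 and 20 in the knockout libraries in order of depth. Capsl, a calcium-binding protein encoded on chromosome 15, had 99 and 67 reads against 1, 0, 10 and 7. Mgst1, a microsomal glutathione transferase encoded on chromosome 6, had 65 and 238 reads against 10, 8, 0 and 0. In Tex101, Capsl and Mgst1 the knockout libraries thus differed from one another, and 2 of the 4 had at most 1 read. Ptgds, a prostaglandin D synthase encoded on chromosome 2, had 31 and 169 reads against 3, 2, 1 and 3 and was low in all 4. Gm773 was chosen after its values were seen.

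Among the genes that were higher in Nfat5-KO_300, ID proteins and other direct targets of bone morphogenetic protein (BMP) signalling formed a group. ID proteins are dominant inhibitors of basic helix-loop-helix factors and respond to BMP receptors through SMAD proteins. Id1 (chr2:152736251-152737410) had 92.1 FPKM in the knockout cells against 33.6 in the deeper and 20.4 in the shallower Scr_300 library. Id3 (chr4:136143497-136145755) had 34.5 against 10.2 and 6.01. Id2 had 74.3 against 34.8 and 50.002. All 3 were above both controls, at log2 ratios to the group value of 1.77, 2.07 and 0.81. Of the 9 genes compared in the list, 4 were 2-fold higher and 1 was 2-fold lower, beside 1.73% and 2.44% of all genes. At least 1.5-fold higher were 7, beside 5.27%, and 8 lay above both control libraries, beside 38.4%. The list's median was 0.90, or 1.06 to the deeper and 0.75 to the shallower control, and 1.40 at 600 mosmol/kg.

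The inhibitory SMADs were part of it, with Smad7 at 6.07 FPKM against 2.86 and 3.57 and Smad6 at 5.58 against 3.16 and 4.74. Gata3, a transcription factor of the collecting duct (chr2:9857078-9890034), had 11.8 FPKM against 3.67 and 3.14, and Gata2 had 7.46 against 3.59 and 3.04. Gata3 reached 30.04 FPKM in Nfat5-KO_600 against 4.33 in Scr_600. The member that was lower was Hey1, a Notch and BMP target, at 0.312 FPKM against 1.08 and 0.460. The ligands, receptors and antagonists of the BMP and TGF-beta pathways were not shifted as a group. Of 33 compared 2 were 2-fold higher and 0 lower, 17 were higher and 16 lower, and the median was 0.03. The pair that was 2-fold higher by the group value, Fst, an activin and BMP antagonist, and Bmp3, had 3.79 FPKM against 1.40 and 1.98 and 0.842 FPKM against 0.263 and 0.406.

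Hsd11b2, which protects the mineralocorticoid receptor from glucocorticoids in principal cells (chr8:105518755-105523988), had 1.95 FPKM in Nfat5-KO_300 against 0.408 and 0.357 and 6.18 against 0.655 at 600 mosmol/kg. It was the only one of 20 compared genes of salt and water transport in the collecting duct that differed by 2-fold, and the list's median was 0.10. Scnn1a, the alpha subunit of the epithelial sodium channel, had 3.56 FPKM between control values of 1.75 and 4.16, and Aqp3, a basolateral water channel, had 2.93 between 1.95 and 3.86. For these genes the controls differed from each other more than from the knockout.

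Several genes of stratified epithelia were among the named genes with higher values, while Scel, given above, was lower. A list of cornified envelope and squamous epithelial genes was added after the values were seen. Of its 27 genes compared, 13 were 2-fold higher and 2 were 2-fold lower, beside 1.73% and 2.44% of all genes. Genes already seen to be higher were among its members, so this count cannot show a shift of such genes. Sprr2h and Sprr2g, small proline-rich proteins of the cornified envelope, had 4.21 and 139 FPKM in Nfat5-KO_300. The controls had 0.111 and 0.333 FPKM for Sprr2h, from 3 and 8 reads, and 14.7 and 38.9 for Sprr2g, which the annotation calls a polymorphic pseudogene. S100a7a, an antimicrobial psoriasin, had 4.66 against 0.323 and 0.295. Cnfn, cornifelin, had 4.82 against 0.348 and 0.739, and Klk10, a kallikrein-related peptidase, had 10.4 against 1.48 and 3.26. In Sprr2h, Sprr2g, Cnfn and Klk10 the shallower control exceeded the deeper by 2-fold or more, and the knockout value lay above both.

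The keratins were divided. Krt14 had 1.36 FPKM against 0.111 and 0.445, Krt16 2.85 against 0.676 and 1.28, and Krt20 42.6 against 18.4 and 19.0. Krt5, the partner of Krt14 in basal keratinocytes, was lower, with 2.22 against 5.16 and 11.9, and so was Krt4, with 0.884 against 2.53 and 2.38. At 600 mosmol/kg Krt5 and Krt4 were on the other side, at log2 ratios of 2.16 and 2.02. The keratins of simple epithelia, Krt18, Krt19 and Krt7, differed by -0.16, 0.17 and 0.23. Havcr1, or KIM-1, a marker of injured proximal tubule, had 1.24 FPKM against 0.169 and 0.176, and 2.01 against 0.156 at 600 mosmol/kg. Of the 13 injury and repair markers compared, 2 were 2-fold higher and 3 lower, beside 1.73% and 2.44% of all genes. Clu, clusterin, a secreted chaperone, was one of the lower ones, at 8.15 FPKM against 27.0 and 12.5.

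Genes of the extracellular matrix and of cell adhesion included several with large increases. Fbln2, fibulin-2, a basement membrane and elastic fibre protein (chr6:91212455-91272540), had 48.1 FPKM against 12.2 and 13.3 and 25.7 against 4.73 at 600 mosmol/kg. Col4a1 and Col4a2, which are transcribed from a shared promoter and form the main collagen IV network, had 2.23 against 0.947 and 0.742 and 1.78 against 0.841 and 0.676. Lama3, the laminin alpha chain of epithelial basement membranes, had 3.24 against 0.474 and 0.707. Parvb, an integrin-linked actin adaptor, had 4.19 against 0.492 and 0.482. Each of these 5 genes was at least 2-fold above both controls. In the families, 3 of 7 collagens and 1 of 7 laminins were 2-fold higher and 0 lower, beside 1.73% and 2.44% of all genes. None of 14 integrins differed by 2-fold. The other 4 collagens, Col4a5, Col8a1, Col11a2 and Col18a1, lay below both controls by less than 2-fold, and the median of the 7 collagens was -0.11. All 13 ephrins and Eph receptors compared were higher, at a median of 0.33, while 50.2% of all genes were lower. Above both control libraries were 10, beside 38.4% of all genes. Epha2, with 35.3 FPKM against 17.5 and 13.1, was the only one past 2-fold.

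Ptgs2, cyclo-oxygenase 2, which renal medullary cells use to make prostaglandin E2, had 23.4 FPKM in Nfat5-KO_300 against 6.73 and 6.09. At 600 mosmol/kg it did not stand apart, with 14.998 FPKM against 13.7 in Scr_600, where the libraries had 19.2 and 8.34. Fosl1, a subunit of the AP-1 factor, had 11.5 against 3.38 and 4.43, and 3.46 against 2.78 at 600 mosmol/kg. Ereg, epiregulin, a ligand of the EGF receptor, had 1.64 against 0.465 and 0.462. Dusp5, an ERK phosphatase, had 12.6 against 6.28 and 5.54. Egr1, an immediate early gene, had 2.20 FPKM against 14.002 and 3.35, and Dusp1 had 4.82 against 13.8 and 3.46. In Egr1 and Dusp1 the deeper control library stood far above the other, which lay within 2-fold of the knockout value. Of 15 MAPK feedback genes 2 were 2-fold higher and 0 lower, and of 20 immediate early factors 1 was higher and 1 lower. The shares over all genes were 1.73% and 2.44%.

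**Figure D2:**
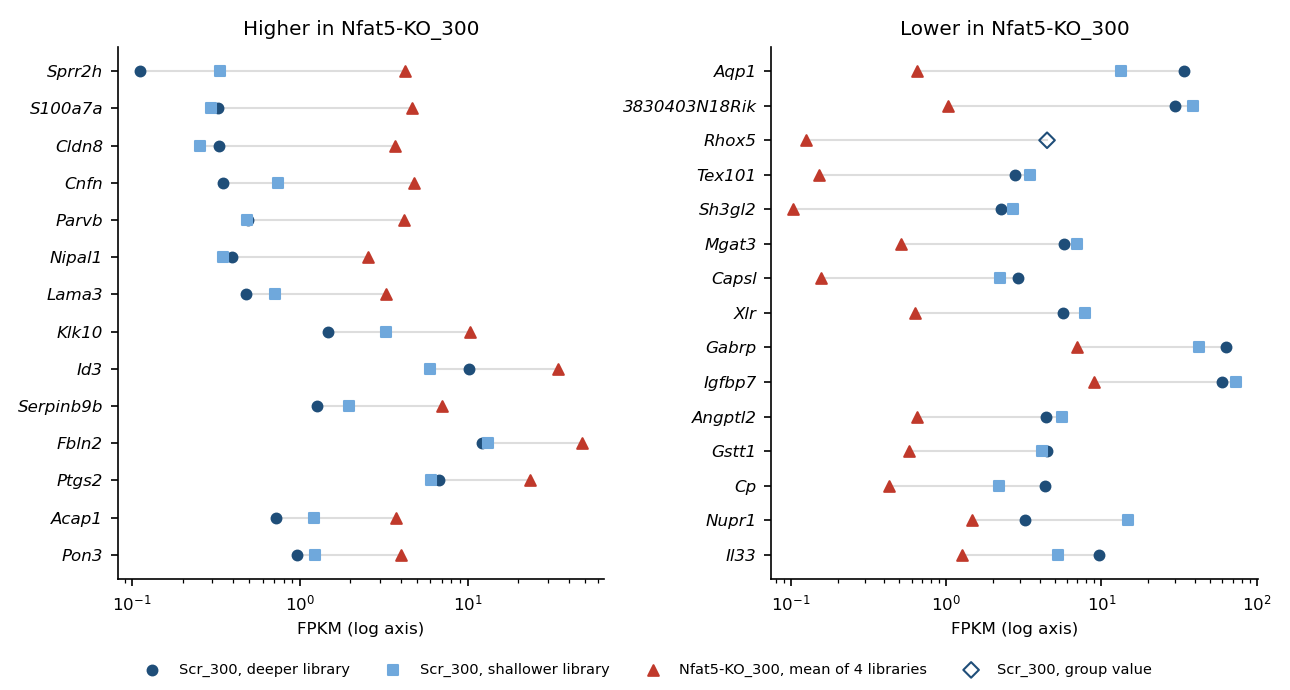
FPKM (log axis) of 14 of the 15 protein-coding genes with the highest and of the 15 with the lowest log2 ratio, among those with at least 2 FPKM in 1 group and 0.1 in both. Circles and squares are the deeper and the shallower Scr_300 library, triangles the mean of the 4 Nfat5-KO_300 libraries, and the diamond is the group value of Rhox5, whose reads were not recovered; in each gene with recovered reads the triangle lies outside the control libraries, which are closest together in Parvb and farthest apart in Nupr1.

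Several lists that were lower in Nfat5-KO_300 depended on which control library they were read against. ATF4 is the transcription factor of the integrated stress response, which cells enter when amino acids are short or proteins misfold. Of 17 of its target genes compared, 15 were lower than the group value of Scr_300 and 3 were 2-fold lower, at a median of -0.54. The shares over all genes were 50.2% and 2.44%. In the 13 genes with recovered reads, however, the shallower control exceeded the deeper in all 13, by a median log2 ratio of 1.94. Trib3, a pseudokinase induced by ATF4, had 11.99 FPKM in the knockout cells, 5.79 in the deeper and 51.6 in the shallower control. Chac1, which degrades glutathione, had 12.9 between 6.04 and 31.6. Slc7a11, the cystine transporter, had 1.44 between 0.606 and 3.54. The knockout value lay between the controls in 10 of the 13 genes and below both in 3, beside 26.7% and 34.9% of all genes. The median was 0.41 to the deeper library and -1.24 to the shallower. The direction of this list therefore turned with the control library, and that of Trib3 did too, at log2 ratios of 1.04 and -2.10.

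Genes of the response to hypoxia showed part of the same split. They are transcribed by hypoxia-inducible factors when oxygen falls and include glycolytic enzymes and mitochondrial regulators. Of 26 compared 23 were lower and 3 higher, 4 were 2-fold lower and 9 at least 1.5-fold lower, with a median of -0.40. Among all genes 50.2% were lower, 2.44% by 2-fold and 6.21% by at least 1.5-fold. The shallower control was above the deeper in 21 of 25 genes, by a median of 0.44. The knockout value lay below both in 18 of the 25, beside 34.9% of all genes, and the median was -0.29 to the deeper and -0.55 to the shallower library. Vegfa, the angiogenic growth factor, had 1.37 FPKM against 1.75 and 5.11. Pdk1, a pyruvate dehydrogenase kinase, had 7.64 against 11.2 and 21.3, and Bnip3l, a mitophagy receptor, had 30.2 against 43.4 and 66.7. Ndrg1, at 11.6 against 21.4 and 26.9, and Mxi1, a MYC antagonist, at 2.51 against 5.65 and 4.72, were lower than both by a wider margin. Of 17 glycolytic genes 14 were lower, and 1, Aldoc, was 2-fold lower, with 2.56 FPKM against 4.94 and 7.39. The 9 hypoxia-inducible factors and their regulators had a median of 0.02.

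**Figure D3:**
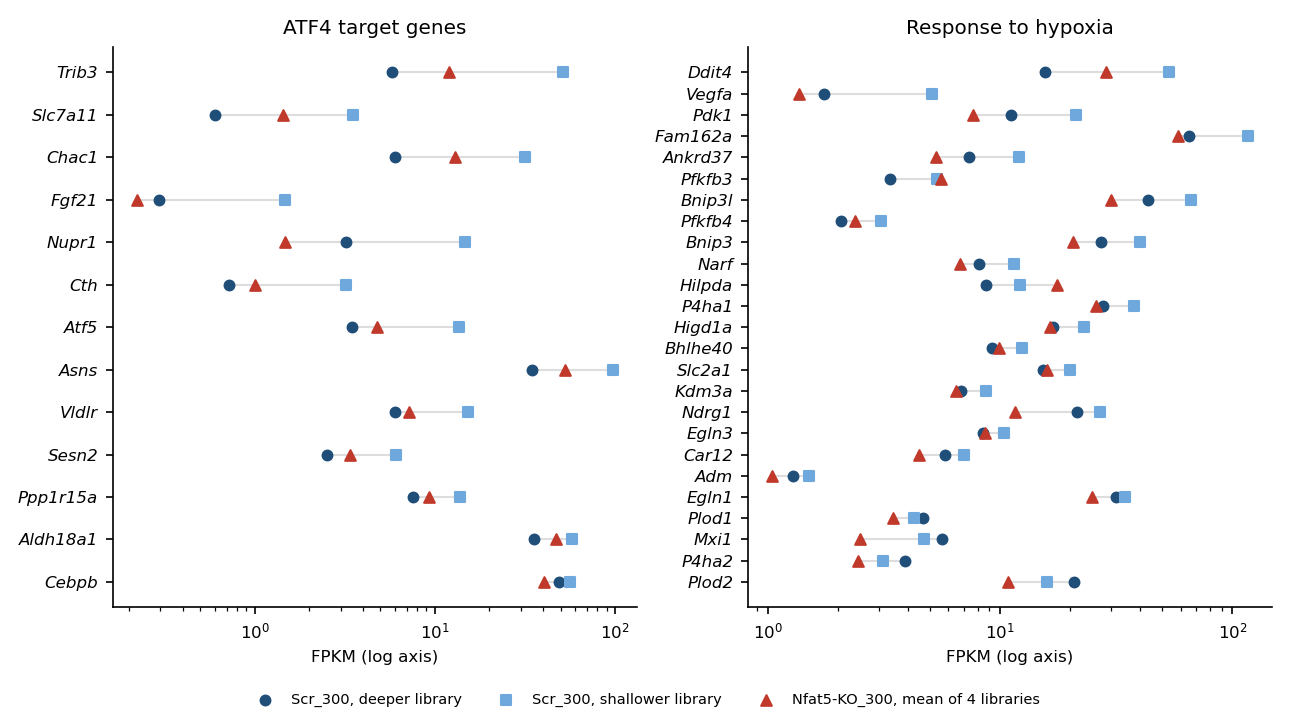
FPKM (log axis) of ATF4 target genes (left) and genes of the response to hypoxia (right) with recovered reads, ordered by the ratio of the shallower (squares) to the deeper (circles) Scr_300 library; triangles are the mean of the 4 Nfat5-KO_300 libraries. In 10 of 13 ATF4 targets the triangle is between the controls, and in 18 of 25 hypoxia genes it is below both, beside 26.7% and 34.9% of all genes.

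Interferon-stimulated genes were lower by smaller amounts. Of 27 compared, 22 were lower and 5 higher, and 2 were 2-fold lower, beside 50.2% lower and 2.44% 2-fold lower of all genes. The median was -0.30, and 16 of 25 with recovered reads lay below both controls, beside 34.9% of all genes. Ifit3, an antiviral protein, had 2.01 FPKM against 3.33 and 4.03, and Oasl1 had 1.46 against 2.60 and 4.34. B2m, the light chain of MHC class I, had 108 FPKM against 193 and 185, which left it below both controls by a log2 ratio of -0.81 to the group value. The interferon list had a median of -0.82 at 600 mosmol/kg.

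Housekeeping programmes differed little. Ribosome biogenesis was the one with the most uniform shift, with 32 of 40 genes higher and 8 lower, 4 at least 1.5-fold higher and a median of 0.26. Among all genes 50.2% were lower and 5.27% at least 1.5-fold higher. The median of ribosome biogenesis was 0.22 to the deeper and 0.33 to the shallower control. In this list 29 of 37 genes lay above both, beside 38.4% of all genes. Wdr3, a subunit of the small ribosomal subunit processome, had 21.2 FPKM against 12.3 and 11.95, and Nop2, an rRNA methyltransferase, had 57.6 against 39.1 and 37.3. The median was -0.33 at 600 mosmol/kg, where 36 of the 40 genes were lower. Of 86 cytosolic ribosomal protein genes 63 were lower, at a median of -0.11. In the 26 of them with recovered reads the median was 0.02 to the deeper and -0.15 to the shallower control. Of these 26, 10 lay above both controls and 11 below both. Of 76 nuclear genes of oxidative phosphorylation 52 were lower, at a median of -0.15. The 40 genes of DNA replication, the 38 of mitosis and the 24 targets of p53 had medians of -0.08, -0.11 and 0.13, and none of them differed by 2-fold. The 279 zinc finger genes and 172 solute carriers had medians of 0.00 and 0.06, so that broad families gave the level at which lists without a shift lay.

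**Figure D4:**
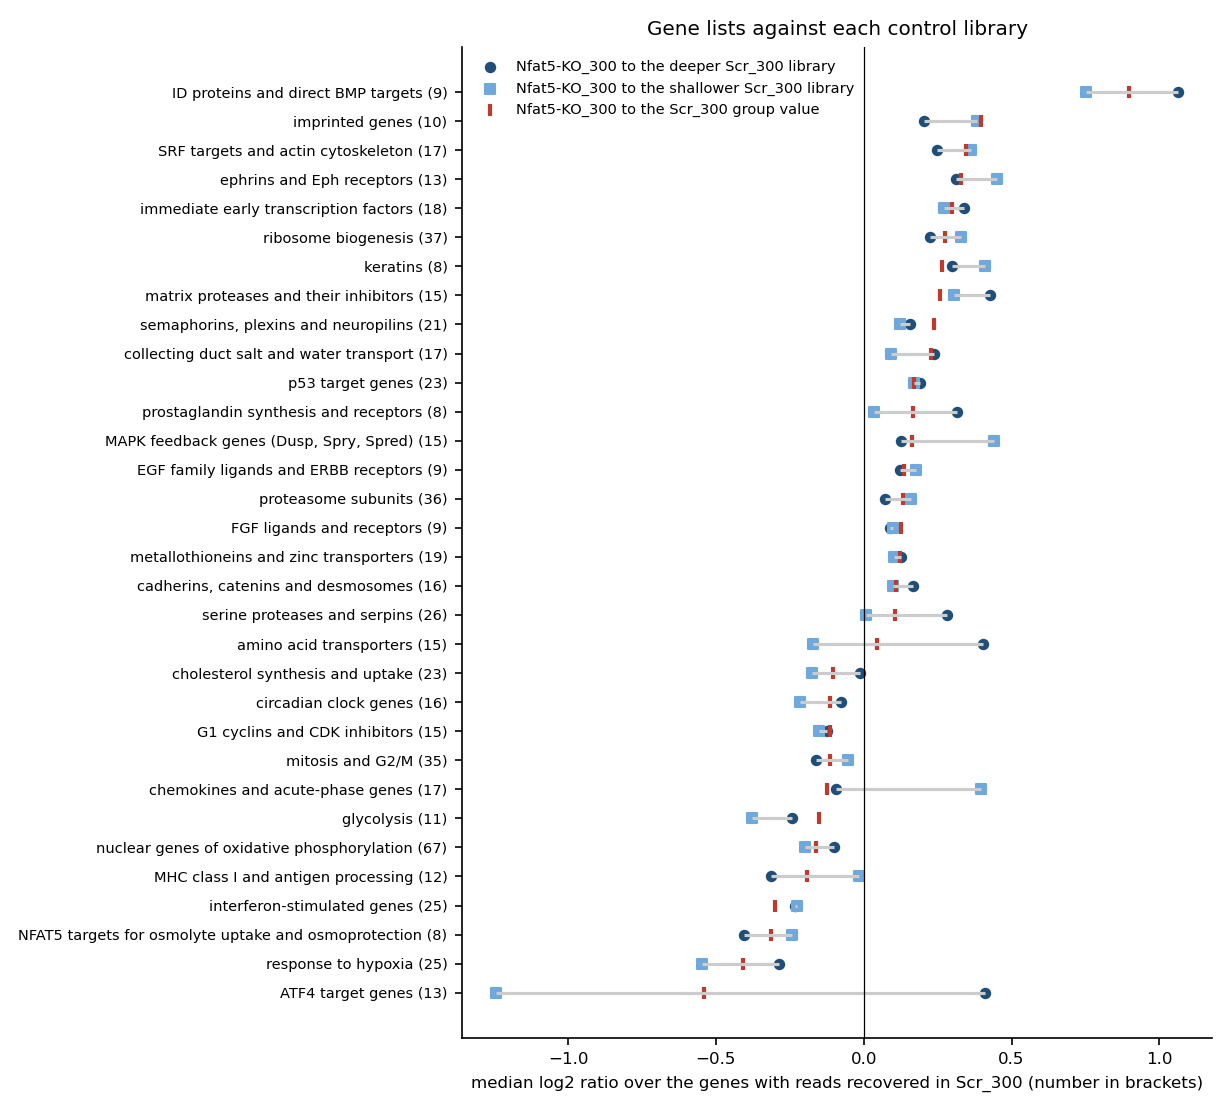
Median log2 ratio of gene lists in Nfat5-KO_300 to the deeper Scr_300 library (circles), to the shallower (squares) and to the group value (red bars), over the genes with recovered reads whose number is in brackets. Lists with at least 8 such genes are shown where the median to the group value was at least 0.1 in size or the controls differed by at least 0.3; ID proteins and direct BMP targets lie to the right in all 3 readings, and ATF4 target genes change side.

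Whole chromosomes differed in their median. The 382 genes of chromosome 16 had a median log2 ratio of 0.245 and 79.3% of them were higher in Nfat5-KO_300. Chromosomes 6, 3, 12 and 5 had medians of 0.172, 0.158, 0.156 and 0.115, and those of the other autosomes and the X chromosome were between -0.089 and 0.075. The control libraries differed by no more than 0.053 on any autosome or on X, and chromosome 16 had a median of 0.264 to the deeper and 0.226 to the shallower control. At 600 mosmol/kg the medians of chromosomes 16, 12, 3, 6 and 5 were 0.241, 0.216, 0.204, 0.130 and 0.074. In windows of 20 Mb with at least 20 genes, 21 of 138 had a median of at least 0.15 and 12 of at most -0.15. Of the 21, 19 also reached 0.15 against both control libraries, and 15 did at 600 mosmol/kg. In the 21 windows 67 of 2089 genes (3.21%) were 2-fold higher and 29 (1.39%) lower. Elsewhere these were 151 of 10471 (1.44%) and 266 (2.54%). Fbln2, Gata2, Gata3, Lama3, Sprr2g, Sprr2h and S100a7a lie in the 21 windows, while Id1, Id3, Parvb and Cldn8 do not. The part of copy number in the medians and counts of chromosomes and windows was not tested.

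**Figure D5:**
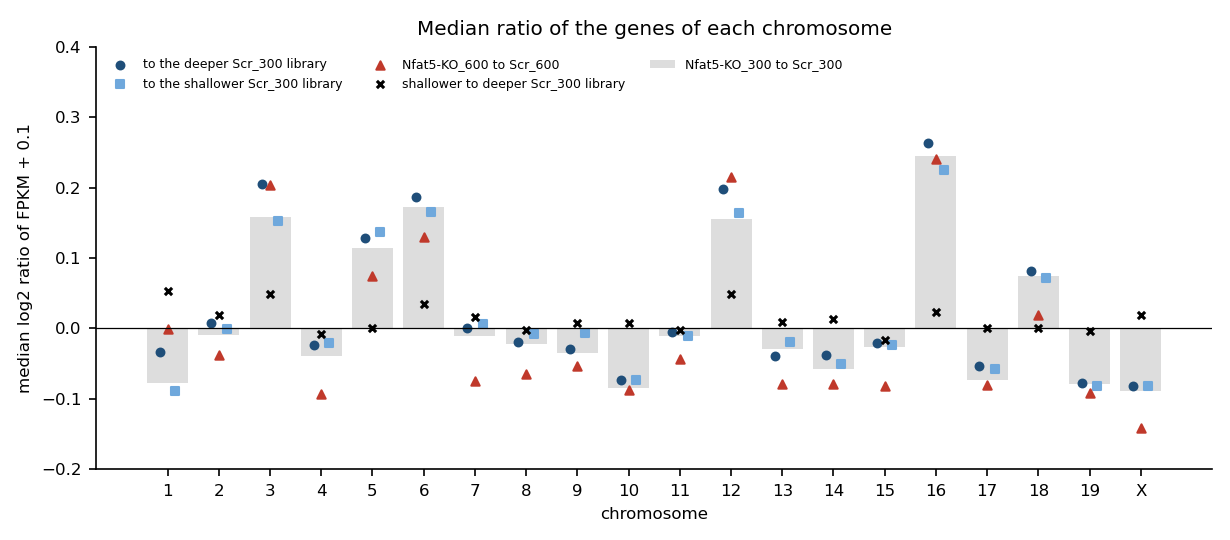
Median log2 ratio of FPKM + 0.1 (y axis) over the genes of each autosome and the X chromosome (x axis). Grey bars give Nfat5-KO_300 to Scr_300, circles and squares the same against each Scr_300 library, triangles Nfat5-KO_600 to Scr_600, and crosses the shallower to the deeper Scr_300 library; chromosome 16 stands at 0.245, and the crosses stay within 0.053 of 0.

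Differences seen at 300 mosmol/kg were compared with those of the hypertonic libraries. These came again from the clones N1 and N3 and from scramble cells, so that they added no other clone or control line. The share of all 12704 genes on the same side at both osmolalities is not given here. Of the 220 genes with a 2-fold higher value, 177 (80.5%) were on the same side at 600 mosmol/kg, 90 again by 2-fold, and 7 were 2-fold lower. Of the 310 lower genes, 235 (75.8%) were on the same side, 115 by 2-fold, and 19 were 2-fold higher. Among genes 2-fold away from both isotonic controls the shares were 108 of 129 (83.7%) and 115 of 142 (81.0%). Among those that were 2-fold away by the group value alone, they were 64 of 82 (78.0%) and 85 of 125 (68.0%). Reads of the Scr_600 libraries were recovered for 128 of the 129 and 140 of the 142 genes. In the strictest reading, 54 genes were 2-fold above and 40 were 2-fold below both control libraries at each osmolality. No minimum level was set at 600 mosmol/kg, and 42 of the 54 and 36 of the 40 were protein coding. They included Cldn8, Parvb, Lama3, Fbln2, Id1, Id3, Gata3, Gata2, Hsd11b2 and Havcr1 among the higher, and 3830403N18Rik, Sh3gl2, Mgat3, Cp, Slco4a1, Pax2, Slc25a48 and Nupr1 among the lower. Aqp1 and Igfbp7 could not be placed in it because the reads of Scr_600 were not recovered for these abundant transcripts. Serpinb9, an inhibitor of granzyme B, showed the opposite pattern, with 19.5 FPKM against 6.65 and 6.79 in isotonic medium and 4.70 against 12.5 at 600 mosmol/kg.

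The start regions of these genes were searched for the core of the NFAT binding site, TGGAAA, on both strands. The windows reach from 250 bases before to 50 bases after the start in RefSeq, on GRCm38.p6, and were found for 8423 of the 10582 protein-coding genes compared. Of all of these windows 15.9% held the motif. Among the genes 2-fold above both controls it was 12 of 62 (19.4%), and among those 2-fold below both it was 12 of 67 (17.9%). The core of the hypoxia response element, ACGTG, was in 26.7% of all windows and in 21.0% and 17.9% of these sets. GGCGCC, a GC-rich SMAD element, was in 21.96%, 14.5% and 8.96%, and GTCTAGAC was in 0.249% of all windows, in 0 of 62 and in 2 of 67. The windows of 4 genes with large differences follow, 5′ to 3′ on the strand of the gene, with TGGAAA or its reverse complement in capitals. Aqp1 lies at chr6:55336049-55336348 (plus), Igfbp7 at chr5:77407996-77408295 (minus), Nupr1 at chr7:126625421-126625720 (minus) and Fbln2 at chr6:91212514-91212813 (plus).
Aqp1: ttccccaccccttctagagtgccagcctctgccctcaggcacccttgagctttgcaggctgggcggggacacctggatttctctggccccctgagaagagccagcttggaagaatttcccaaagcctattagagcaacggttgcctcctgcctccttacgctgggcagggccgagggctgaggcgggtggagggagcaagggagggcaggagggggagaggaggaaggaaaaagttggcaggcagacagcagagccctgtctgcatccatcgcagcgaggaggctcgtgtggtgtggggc
Igfbp7: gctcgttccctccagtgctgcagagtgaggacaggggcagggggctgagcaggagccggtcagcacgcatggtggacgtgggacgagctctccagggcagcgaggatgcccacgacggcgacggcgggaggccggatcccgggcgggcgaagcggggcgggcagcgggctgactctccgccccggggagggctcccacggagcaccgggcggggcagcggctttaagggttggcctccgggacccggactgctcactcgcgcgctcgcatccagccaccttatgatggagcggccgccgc
Nupr1: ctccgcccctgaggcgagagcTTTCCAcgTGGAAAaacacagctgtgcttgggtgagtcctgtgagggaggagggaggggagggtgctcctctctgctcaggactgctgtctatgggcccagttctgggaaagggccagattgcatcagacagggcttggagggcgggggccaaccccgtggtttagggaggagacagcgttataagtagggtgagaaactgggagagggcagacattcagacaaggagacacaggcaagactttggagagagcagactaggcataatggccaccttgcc
Fbln2: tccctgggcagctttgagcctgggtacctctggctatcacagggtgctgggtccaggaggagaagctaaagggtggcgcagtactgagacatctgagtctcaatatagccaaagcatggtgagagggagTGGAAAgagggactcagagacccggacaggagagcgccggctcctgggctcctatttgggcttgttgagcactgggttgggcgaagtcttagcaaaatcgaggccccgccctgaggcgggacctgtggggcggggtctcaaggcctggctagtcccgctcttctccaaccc
Nupr1 held the motif on each strand, in a pair that lies 2 bases apart, and Fbln2 held it once. Aqp1 and Igfbp7 held none in this window.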

How the data were processed

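RNA-seq libraries of mpkCCD cells were sequenced by the authors, and HISAT2, HTSeq and the build mm10 are named in the submitters' processing notes. The authors deposited FPKM values, 1 per gene and group, as the mean of 4 (Nfat5-KO_300, Nfat5-KO_600) or 2 (Scr_300, Scr_600) libraries, and no other per-sample column was present. Of 54839 rows, 2436 without a value, 311 exact duplicates and 37 symbols with several rows were left out, which left 52015 genes. Ratios were log2(FPKM + 0.1), which understates changes of low genes, and a ratio is printed for a single gene only if neither group was under 0.1 FPKM. The study's test on counts was not run, since the reads of all 6 libraries were recovered for only 753 of the 12704 genes compared.

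FPKM multiplied by the exon length in GENCODE M21 was solved for whole reads in each library. In Scr_300 a single solution within 1.3 roundings of the deposited value was found for 19897 of 21535 genes tried (92.4%), and in Nfat5-KO_300 for 10720 of 11886 (90.2%), all with few reads. Recovered libraries were not matched to clones or samples. Reads are not independent molecules.

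Named genes were Nfat5, genes followed by RT-qPCR in the study, NFAT5 targets, the 15 protein-coding genes with the highest and the 15 with the lowest ratio among those with at least 2 FPKM in 1 group, the 10 with the largest FPKM difference in each direction, and up to 6 genes of each of 69 lists. The comparison, the members and the lists were chosen with earlier results of these data known. A further 3 lists were added after the values were seen. They enter the counts of list medians under the alternatives and, with up to 6 genes each, the counts of named genes. The list of germ-cell and X-linked testis genes and that of cornified envelope and squamous epithelial genes are also described above. Aqp3, Bmp3, Chac1, Col11a2, Hey1, Krt7, Krt18, Krt19, Smad6 and cell type markers were named outside this rule. Alternatives were other pseudocounts, other filters, median-of-ratios factors, protein-coding genes alone, genes outside shifted windows, and each control library alone. The steps were tested on simulated data and run in Python 3.11.15 with numpy 2.4.6, pandas 2.3.3, scipy 1.17.1 and matplotlib 3.10.9. Areg, Nrg1, Aldoa, Ddit3, Sgol1 and Zac1 were not analysed here. One gene that met the rule for named genes is not reported here.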

Additional observations from a re-analysis of the deposited data

How the results depend on the processing

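With a pseudocount of 1 FPKM the 220 higher and 310 lower genes became 48 and 87, with no filter on low values 581 and 647, with a mean of at least 1 FPKM 106 and 153, and with protein-coding genes only 133 and 152. Outside shifted 20-Mb windows there were 146 higher genes. A pseudocount of 0.01 FPKM gave 262 and 367, and median-of-ratios factors gave 216 and 315. The median log2 ratio of -0.0015 was 0.031 with no filter, -0.0074 with median-of-ratios factors, 0.0077 in protein-coding genes and -0.028 outside shifted windows. The share of 2-fold genes on the same side at 600 mosmol/kg, 77.7%, was 85.2% with a pseudocount of 1, 66.4% with no filter, 83.8% with a mean of at least 1 FPKM and 83.2% in protein-coding genes. Each control library alone, chosen after seeing the data and run on genes with recovered reads, gave 268 to 297 higher and 336 to 339 lower genes, a median of 0.0070 to 0.013 and a same-side share of 70.6% to 74.0%. Trib3 was at 1.04 with the deeper library alone and at -2.10 with the shallower. The medians of 17 of 69 lists had the other sign with the deeper library alone and those of 5 of 69 with the shallower, as did 16 and 5 of 362 named genes. The causes of these changes were not tested, other than that filters and gene classes change which genes are counted. No paired analysis was possible because the group columns carry no replicate numbers. Among genes under 1 FPKM the control libraries were 2-fold apart in 16.04%, and the part of depth in this was not tested.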
